A study of Homo sapiens with 16 samples.

Results

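The footprint response to heat was compared between senescent and young cells of WI-38, a fibroblast line from human lung, as the response in senescent cells minus the response in young cells. All 8 ribosome profiling (Ribo-seq) libraries of the study's 16 libraries enter this difference, and every gene was a member: 19201 genes are listed and 11288 had enough counts to be tested. The groups, each with 2 libraries, were senescent heat shock and senescent control (passage 36), and young heat shock and young control (passage 24). Heat shock lasted 2 h at a temperature read as 44 °C from a label that lost its degree sign, and control cells had no heat shock. All cells were serum-starved for 24 h and then returned to full medium before the experiment, and 8 RNA-seq libraries of the same 4 groups were used beside the footprints.

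Ribo-seq sequences the short stretches of mRNA that ribosomes protect from nuclease, so that counts per gene follow how many ribosomes sit on its message. Heat shock is known to activate heat shock factor 1, which drives chaperone genes, while most other translation is reduced, in part through the integrated stress response and through mRNAs with a 5′ terminal oligopyrimidine (TOP) tract. Cells that have stopped dividing for good, called senescent, are known for a changed secretome and for a weaker induction of heat shock genes in several systems.

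Footprint counts per library summed to between 4581141 and 9104077. Levels are given as CPM (counts scaled to a common library total) after TMM scaling, which are shares of a library, so a lower CPM does not by itself mean fewer footprints per cell, and fewer cells of a kind cannot be told apart from less RNA per cell. Fibroblast markers were high in every library, with a summed level of 15800 to 16700 CPM in senescent heat shock, 27200 to 27400 CPM in senescent control, 16500 to 19000 CPM in young heat shock and 23600 to 24500 CPM in young control. Markers of epithelial, endothelial and immune cells summed to between 28 and 301 CPM in the same libraries, with CDH5, CD3E and SFTPC at 0 throughout, and PTPRC, CDH1 and EPCAM under 1 CPM. Those sums came mostly from TEK (26.2 to 110.0 CPM), CD4 (14.2 to 143 CPM), CD68 (85.5 to 196 CPM), KRT18 (40.9 to 106 CPM) and KRT19 (55.5 to 121 CPM). TEK, CD4 and KRT19 were higher in every senescent library than in any young one, and their part in the results was not tested. The young control libraries differed far less from each other than any other pair: chi-square over its degrees of freedom was 1.729 there and 17.2 to 38.75 in the other pairs. The test still found a difference between them, but over 11377 genes it can do so for slight extra spread. It cannot tell separate cultures from technical repeats. They were kept as 2 samples, and their small spread enters the pooled spread behind every SE and p-value. Counts are also given with both summed to 1. Nothing in the labels says that replicates came from separate cultures, so p-values measure the spread between these samples, which may be technical.

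No gene passed the test of the difference. With edgeR's quasi-likelihood test, 0 of 11288 genes (0%) were called at an adjusted p under 0.05, the smallest adjusted p being 0.834. At an unadjusted p under 0.05, 209 genes (1.85%) were higher and 345 (3.06%) lower in senescent than in young cells. The sum of these was 554 genes or 4.91%, where a uniform spread of p gives 5%. That count was not stable: it was 1975 without senescent heat shock 1, 1305 without senescent control 2, 905 without young heat shock 2, and 165 or 156 without young control 1 or 2. DESeq2 called 10 genes, 3 higher (AHNAK, TVP23C and TICAM2) and 7 lower (COL3A1, COL1A1, AGRN, COL5A1, FKBP4, PIEZO1 and COL1A2). Among the 8634 genes with at least 10 CPM in a group, the lower and upper quartiles of the differences were -0.36 and 0.32 on the log2 scale, with a median SE of 0.397 and a median 95% half-width of 0.899. A typical gene therefore had to differ by about that half-width before its own interval left 0, and many smaller differences were not detectable with 2 libraries a group.

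Each state's own response was easier to detect. In senescent cells 352 genes rose (3.12%) and 591 fell (5.24%) with heat, 943 in all (8.35%), and in young cells 87 rose (0.771%) and 43 fell (0.381%), 130 in all (1.15%). Of the genes called in both states, 112 moved the same way and 0 the opposite way. More calls in senescent cells do not show a larger response, since the test of the difference called none. The counts were unstable: with the young control libraries counted as 1 sample, 100 rose and 147 fell in senescent cells, and 24 rose and 3 fell in young cells. Without senescent heat shock 1 or 2 the total for senescent cells was 1934 or 237, without senescent control 1 or 2 it was 264 or 302, and without young control 1 or 2 it was 244 or 249. The total for young cells was 270 or 275 without senescent heat shock 1 or 2, 51 or 77 without young heat shock 1 or 2, and 27 without either young control library. Scaling by library size alone moved the split to 173 rising and 1180 falling in senescent cells, and to 68 rising and 169 falling in young cells, because it shifted the median response of all genes to -0.25 and -0.28. That shift was nearly equal in both states, and the median difference between them stayed at -0.01.

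**Figure D1:**
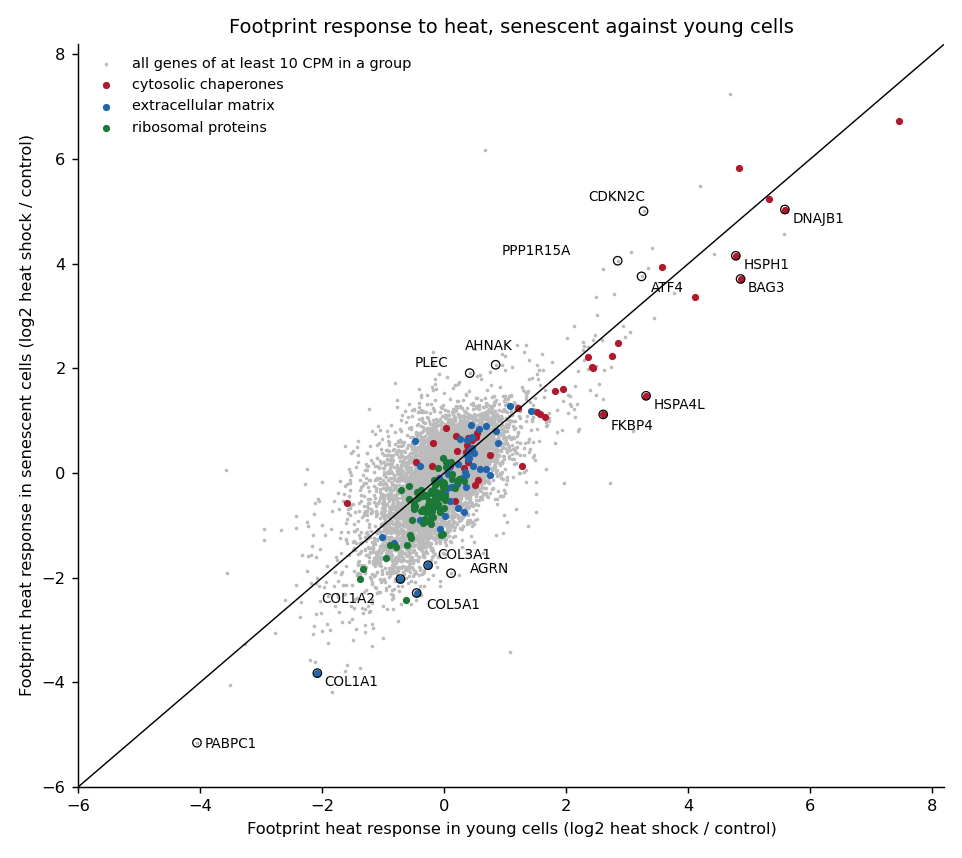
Footprint response to heat in senescent cells (vertical, log2 heat shock over control) against that in young cells (horizontal) for 8626 genes of at least 10 CPM in a group; 8 more lie outside the axes. Points on the line respond alike; circled genes are named in the text, with COL1A1, COL5A1 and AGRN below the line and PLEC, AHNAK and CDKN2C above it.

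Of the 10 genes of smallest p that were lower in senescent cells, 4 encode chains of fibrillar collagens, the main structural proteins that fibroblasts secrete, and none was called by edgeR. COL5A2, another fibrillar chain and chosen after its values were seen, had 563 and 946 CPM in senescent heat shock, 418 and 448 CPM in senescent control, 587 and 498 CPM in young heat shock, and 289 and 314 CPM in young control, a difference of -0.05 ± 0.35, so the pattern did not extend to every chain. COL1A1, a chain of type I collagen, had 707 and 547 CPM in senescent heat shock, 8134 and 9671 CPM in senescent control, 1794 and 2289 CPM in young heat shock, and 8781 and 8503 CPM in young control. Control libraries of both states lay close together, and both heat-shocked senescent libraries were below both heat-shocked young ones. Footprints of COL1A1 fell with heat in senescent cells (log2 -3.83 ± 0.21 SE, adjusted p = 0.000335, edgeR) and in young cells (log2 -2.08 ± 0.21, adjusted p = 0.00291, edgeR). The difference between these responses was -1.75 ± 0.30 (95% interval -2.43 to -1.06), and was not called by edgeR (adjusted p = 0.834).

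COL3A1, the chain of type III collagen, had 126 and 120 CPM in senescent heat shock, 418 and 417 CPM in senescent control, 314 and 336 CPM in young heat shock, and 378 and 404 CPM in young control. Heat-shocked senescent libraries stood apart from the other 6. The response was -1.76 ± 0.16 in senescent cells, where the gene fell (adjusted p = 0.00132, edgeR), and -0.27 ± 0.16 in young cells, where it was not called. Its difference of -1.50 ± 0.23 (95% interval -2.02 to -0.98) had the smallest p of all genes tested, with an adjusted p of 0.834 in edgeR. COL1A2, the other chain of type I collagen, had 2090 and 1588 CPM in senescent heat shock, 7686 and 7317 CPM in senescent control, 3771 and 3267 CPM in young heat shock, and 5993 and 5591 CPM in young control. Its difference was -1.31 ± 0.28, and it fell in senescent cells (log2 -2.03, adjusted p = 0.00183, edgeR) but was not called in young ones (log2 -0.72). COL5A1, a type V chain that copolymerises with type I collagen, had 50.9 and 27.0 CPM in senescent heat shock, 184 and 201 CPM in senescent control, 124 and 122 CPM in young heat shock, and 172 and 166 CPM in young control. This gene's difference was -1.84 ± 0.39, the heat-shocked senescent libraries being lowest and the heat-shocked young ones also below all 4 control libraries.

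A known feature of some of these mRNAs is a stem-loop around the start codon, bound by the protein LARP6, which is why these bases are shown. The windows run from 20 bases before the start codon to 10 bases from its first base on (GENCODE v29, GRCh38), and capitals mark both arms of the stem, CATGTCT and AGACATG, the second of which holds the start codon ATG.
COL1A1, chr17:50201504-50201533, minus strand: taCATGTCTagggtctAGACATGttcagct
COL1A2, chr7:94395012-94395041, plus strand: tgCATGTCTaagtgctAGACATGctcagct
COL5A1, chr9:134642168-134642197, plus strand: ccggcccgcgccccgccggcatggacgtcc
Each window lies within 1 exon and joins the end of the 5′ untranslated region to the first codons. Both arms on the sense strand occur in 4 of 17417 genes (0.023%), COL1A1 and COL1A2 among them. COL5A1 lacks them. No relation between the arms and the response was tested.

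In transcripts none of these collagen genes was called for the same contrast by edgeR. Their transcript differences had larger SEs than their footprint differences, so they do not show that transcripts responded alike in both states. COL1A1 transcripts stood at 4921 and 12718 CPM in senescent heat shock, 4363 and 8620 CPM in senescent control, 5704 and 11210 CPM in young heat shock, and 5811 and 7493 CPM in young control. All 4 groups overlapped, replicate 2 being the higher one in each. The transcript difference was 0.10 ± 0.71 for COL1A1, -0.04 ± 0.36 for COL1A2, -0.36 ± 0.56 for COL3A1 and 0.20 ± 0.52 for COL5A1. Set against each other in 1 fit of all 16 libraries, the footprint difference minus the transcript difference was -1.84 ± 0.82 for COL1A1, -1.26 ± 0.47 for COL1A2, -1.14 ± 0.63 for COL3A1 and -2.04 ± 0.69 for COL5A1, and none was called by edgeR after adjustment.

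**Figure D2:**
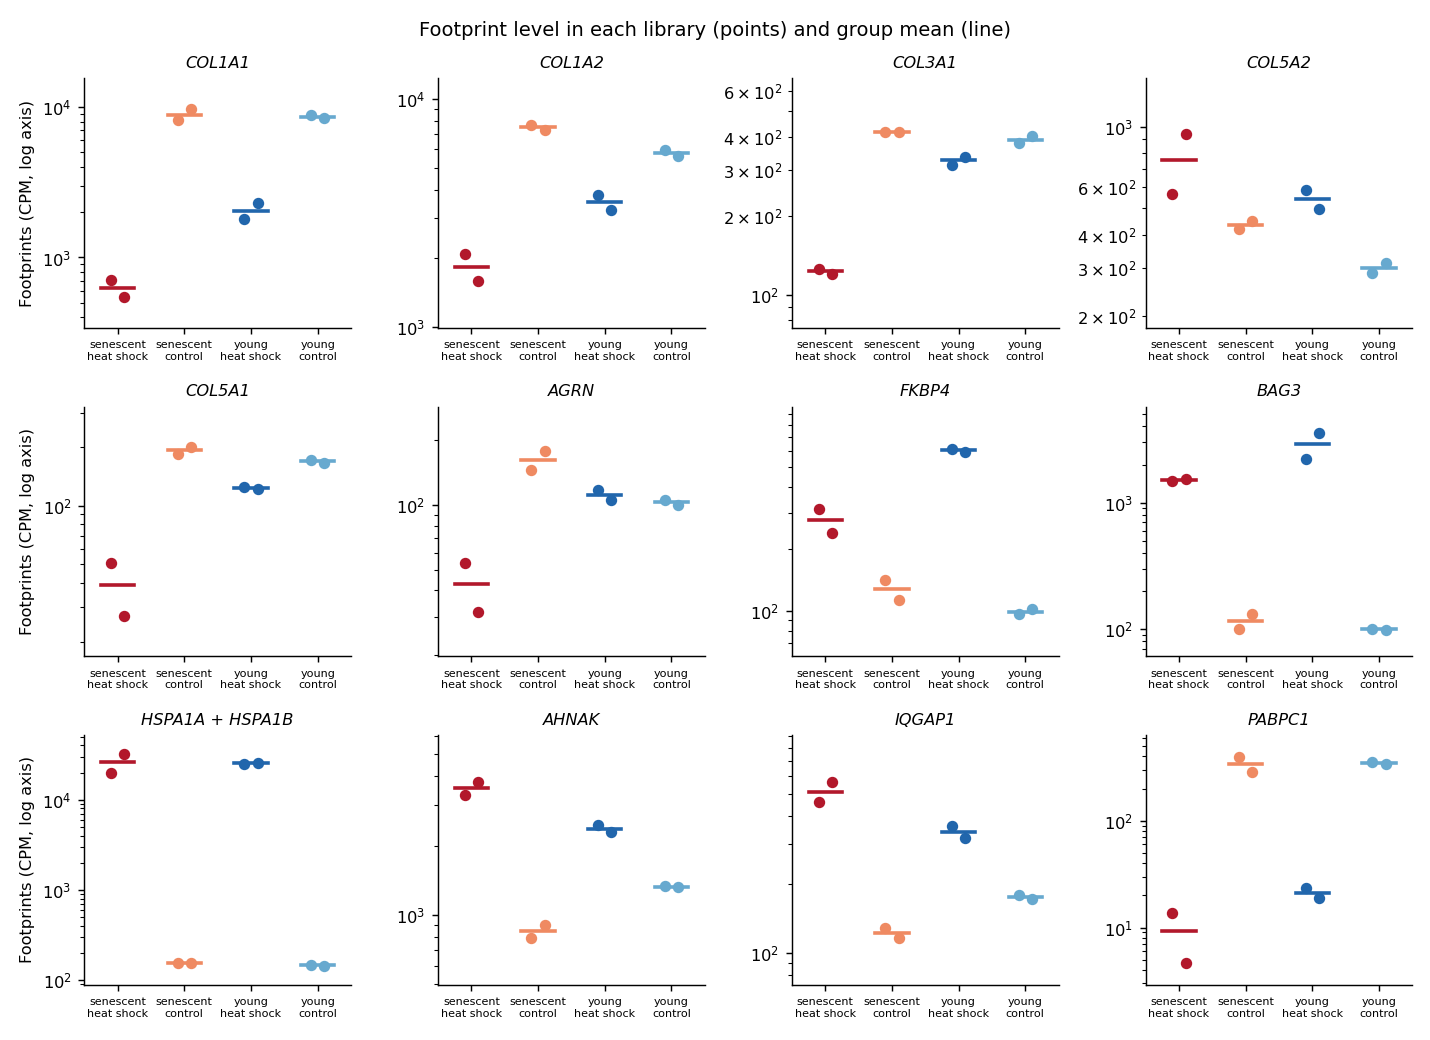
Footprint level (CPM, log axis) of 12 genes in each library, with points for the 2 libraries of a group and a line for the group mean. COL1A1, COL1A2, COL3A1 and COL5A1 are lowest in senescent heat shock, FKBP4 and BAG3 are highest in young heat shock, and the summed HSPA1A and HSPA1B level is alike under heat in both states.

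The extracellular matrix list includes the collagens above as well as collagen modifying enzymes, and none of its members was called for the difference. The list's median difference was -0.31 (-0.12 without senescent control 1), against -0.01 over all genes tested, and 39 of its 51 tested members were below 0, as were 50.3% of all genes. At an unadjusted p under 0.05, 8 members were lower and 0 higher, beside 3.06% and 1.85% of all genes. In transcripts 24 of 51 members were below 0, as were 50.8% of all genes, and the median was 0.01. Members past that unadjusted threshold included, chosen after their values were seen, COL4A1 (-0.84 ± 0.26) and COL4A2 (-1.08 ± 0.31) of basement membrane collagen and the elastic fibre protein EMILIN1 (-0.89 ± 0.36). In senescent cells 2 members of the list rose and 7 fell with heat, and in young cells 1 rose and 1 fell, beside 3.12% and 5.24% of all genes in senescent cells and 0.771% and 0.381% in young cells. ELN, the elastin gene, chosen after its values were seen, was the only gene that edgeR called between the states under heat shock (1 of 11288, 0.00886%, adjusted p = 0.0492). That call was lost without senescent heat shock 2, young heat shock 1, either senescent control or either young control library. With the young control libraries as 1 sample it was lost too. ELN had 22.9 and 24.2 CPM in senescent heat shock and 139 and 103 CPM in young heat shock. Its control levels were 32.1 and 24.8 CPM in senescent cells and 98.1 and 91.4 CPM in young cells, so the gap was present without heat and its difference of response was -0.62 ± 0.32.

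Several of the remaining genes of smallest p encode proteins of the cell surface and matrix. AGRN, agrin, a heparan sulfate proteoglycan of basement membranes, had 53.8 and 31.6 CPM in senescent heat shock, 145 and 179 CPM in senescent control, 118 and 105 CPM in young heat shock, and 106 and 100 CPM in young control. Only the senescent groups separated: the gene fell in senescent cells (log2 -1.92 ± 0.26, adjusted p = 0.00737, edgeR) and stood at 0.11 ± 0.26 in young cells. The difference of -2.03 ± 0.37 was not called by edgeR. PIEZO1, a mechanosensitive ion channel, differed by -1.78 ± 0.37, with 41.3 and 23.6 CPM in senescent heat shock, 199 and 170 CPM in senescent control, 82.9 and 75.9 CPM in young heat shock, and 130 and 131 CPM in young control. CDC42EP1, an effector of the GTPase CDC42 that acts on the actin cytoskeleton, differed by -1.51 ± 0.33, and ADGRA2, an adhesion G protein-coupled receptor, by -1.70 ± 0.38. Transcript differences of these 4 genes lay between -0.03 and 0.37. That of AGRN was -0.03 ± 0.53, with a larger SE than in footprints, so it does not show that its transcripts responded alike in both states.

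Base composition moved with this side of the contrast. The rank correlation of the footprint difference with the GC content of the coding sequence was -0.167 across tested genes, and 0.169 for the transcript difference, where points share libraries and are not independent. Genes lower at an unadjusted p under 0.05 had a median coding GC of 59.97%, those higher 44.56% and all tested 51.77%. Footprint levels followed GC unevenly between libraries, with rank correlations from -0.341 in senescent heat shock 1 to 0.281 in senescent control 2. In RNA-seq the range was wider, from -0.576 in young control 1 to 0.556 in senescent control 2. Transcript differences, and footprint minus transcript values, were not adjusted for GC. Each Ribo-seq library's trend on GC was removed in an alternative added after seeing the data. The footprint differences were then -1.52 for COL1A1, -1.50 for COL3A1, -1.28 for COL1A2, -1.63 for COL5A1, -1.74 for AGRN and -1.60 for PIEZO1. The extracellular matrix list then had a median of -0.24, with 38 of 51 members below 0.

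Several HSP70 and J-domain chaperones of the cytosol were strongly induced in both states, and no member of the cytosolic chaperone list was called for the difference by edgeR (smallest adjusted p 0.834 over all genes). The HSP70 genes HSPA1A and HSPA1B are nearly identical, so that reads may be split between them by chance, and senescent control 1 had no HSPA1B counts at all. Their counts were therefore summed, a choice made after seeing the data. The sum was 19610 and 32290 CPM in senescent heat shock, 156 and 155 CPM in senescent control, 25160 and 25530 CPM in young heat shock, and 148 and 142 CPM in young control. Heat-shocked libraries of the states overlapped. HSPA1A and HSPA1B together rose by 7.38 ± 0.24 in senescent cells and by 7.45 ± 0.24 in young cells, and the difference was -0.07 ± 0.34 with a 95% interval of -0.84 to 0.70. In transcripts the sum was 20210 and 29560 CPM in senescent heat shock, and 30790 and 41260 CPM in young heat shock. Its transcript difference was -0.53 ± 0.36, with a 95% interval of -1.37 to 0.30, and was not called by edgeR. HSPA6, a strictly heat-induced HSP70 gene, had 2606 and 4370 CPM in senescent heat shock, 0.208 and 0.507 CPM in senescent control, 2313 and 4148 CPM in young heat shock, and 1.25 and 0.0971 CPM in young control. Control counts of 1 to 11 left its difference at 0.86 ± 1.41.

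The list of cytosolic heat shock proteins and co-chaperones had 22 of 49 members rising in senescent cells and 21 rising in young cells, where 1 fell; of all genes 3.12% and 0.771% rose. Its median difference was -0.17 (-0.08 without senescent control 1, -0.30 without senescent heat shock 1), and 28 of 49 members were below 0. In transcripts the same list had a median of -0.45, with 41 of 49 members below 0. Members of the panel that leaned lower without passing were HSPH1 (-0.63 ± 0.33), an HSP110 exchange factor, and DNAJB1 (-0.55 ± 0.40), a J-domain partner of HSP70. HSP90AA1, the inducible HSP90, stood at -0.52 ± 0.44, the small heat shock protein HSPB1 at -0.40 ± 0.52, and HSPA8, the constitutive HSP70, at -0.34 ± 0.32.

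Of the 49 members, 4 were lower and 1 higher at an unadjusted p under 0.05, beside 3.06% and 1.85% of all genes. FKBP4, a peptidyl-prolyl isomerase that works with HSP90 on steroid receptors, had 313 and 239 CPM in senescent heat shock, 141 and 113 CPM in senescent control, 612 and 593 CPM in young heat shock, and 96.4 and 102 CPM in young control. Both heat-shocked young libraries were above both heat-shocked senescent ones, and the gene rose in each state (log2 1.12 ± 0.20 in senescent cells, adjusted p = 0.0175, and 2.61 ± 0.20 in young cells, adjusted p = 0.000817, edgeR). Its difference was -1.49 ± 0.28 and was not called by edgeR (adjusted p = 0.834). BAG3, a co-chaperone that hands HSP70 clients to autophagy, had 1469 and 1546 CPM in senescent heat shock, 99.5 and 131 CPM in senescent control, 2201 and 3566 CPM in young heat shock, and 101 and 98.0 CPM in young control, a difference of -1.15 ± 0.35. HSPA4L, of the HSP110 family, had 61.2 and 34.2 CPM in senescent heat shock, 17.1 and 17.4 CPM in senescent control, 112 and 75.3 CPM in young heat shock, and 9.46 and 9.42 CPM in young control. The difference for HSPA4L was -1.83 ± 0.44, and for DNAJB2, a J-domain protein, it was -1.14 ± 0.37. BAG1, an exchange factor of HSP70 named after its values were seen, was the member on the other side at 1.01 ± 0.39: it fell in young cells (log2 -1.59, adjusted p = 0.0329, edgeR) and was not called in senescent cells (log2 -0.58).

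FKBP4, BAG3, HSPA4L and DNAJB2 had lower values in transcripts too. FKBP4 transcripts stood at 324 and 359 CPM in senescent heat shock, 108 and 104 CPM in senescent control, 886 and 810 CPM in young heat shock, and 106 and 81.1 CPM in young control, a difference of -1.50 ± 0.27. It was called lower in transcripts by DESeq2 (adjusted p = 0.0324) and not by edgeR. The transcript difference was -1.37 ± 0.29 for BAG3, -2.56 ± 1.06 for HSPA4L and -0.87 ± 0.29 for DNAJB2. Footprint minus transcript difference was 0.02 ± 0.39 for FKBP4, 0.22 ± 0.47 for BAG3, 0.73 ± 1.26 for HSPA4L and -0.26 ± 0.47 for DNAJB2, each within about 1 SE of 0. Across the 11166 genes tested in both tables the rank correlation of the footprint and transcript differences was 0.142. Of 553 genes at an unadjusted p under 0.05 in footprints, 13 were also under it in transcripts with the same sign and 0 with the opposite sign.

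**Figure D3:**
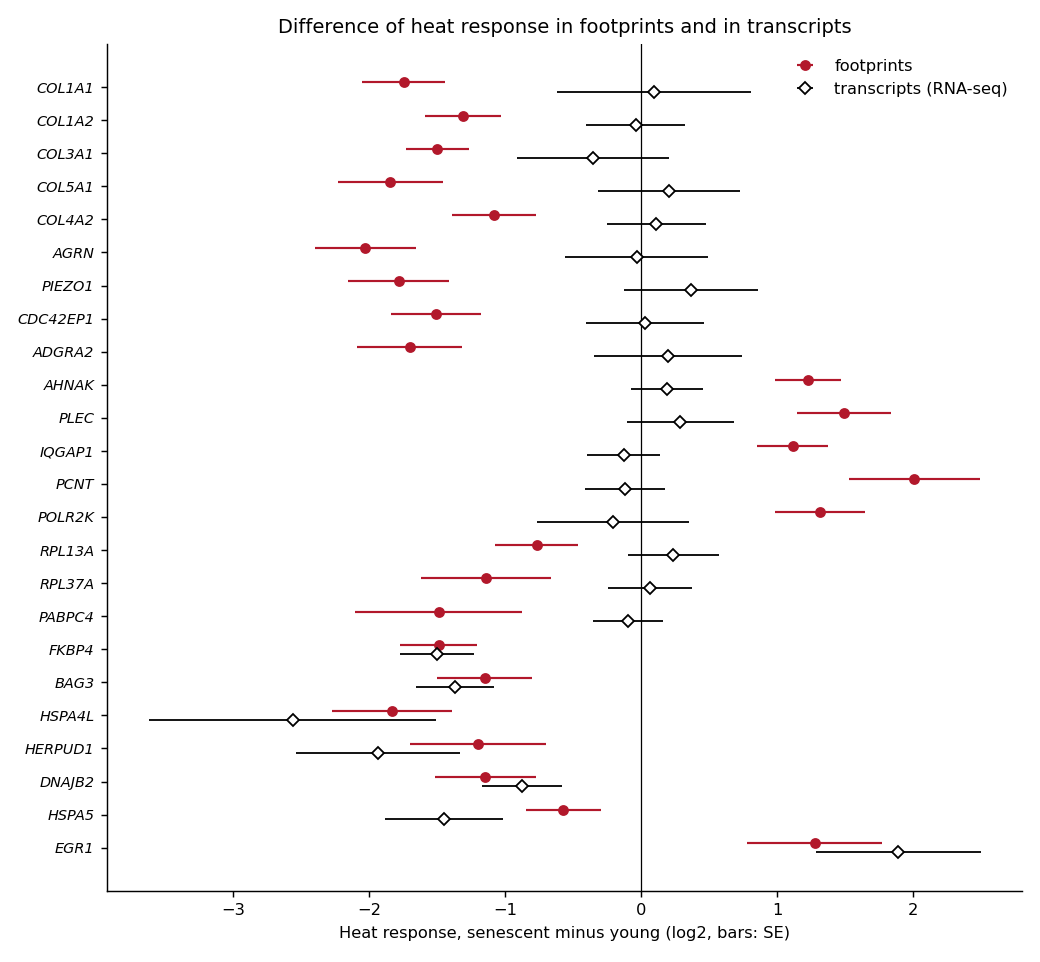
Difference of the heat response, senescent minus young (log2, bars are SE), in footprints (filled circles) and in transcripts (open diamonds) for 24 named genes. From COL1A1 to PABPC4 the footprint value is away from 0 and the transcript value near it, while for FKBP4, BAG3 and HSPA4L both are below -1. Transcript bars of COL1A1, COL1A2, COL3A1 and COL5A1 are wider than their footprint bars. Those of AGRN, PLEC and POLR2K, among others, are wider too, while that of PCNT is narrower.

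In the endoplasmic reticulum, chaperones and disulfide isomerases had a median difference of -0.34, which was -0.06 without young heat shock 1, and 26 of 34 tested members were below 0; in transcripts the median was -0.23 and 30 of 34 were below 0. HSPA5, the lumenal HSP70 known as BiP, had 6117 and 5643 CPM in senescent heat shock, 2737 and 2585 CPM in senescent control, 6541 and 4863 CPM in young heat shock, and 1758 and 1718 CPM in young control. Levels under heat overlapped and control levels did not, those of senescent cells being higher. HSPA5 rose in both states (log2 1.14 in senescent and 1.71 in young cells), with a difference of -0.57 ± 0.28 in footprints and -1.45 ± 0.43 in transcripts. SERPINH1, a chaperone of procollagen, also rose in both, with 2070 and 1741 CPM in senescent heat shock, 650 and 703 CPM in senescent control, 2939 and 2905 CPM in young heat shock, and 718 and 722 CPM in young control. The SERPINH1 difference was -0.53 ± 0.24. DNAJC10, a reductase of the lumen, fell in senescent cells and differed by -1.03 ± 0.42. It was the 1 of 34 members at an unadjusted p under 0.05, beside 3.06% of all genes that were lower. FKBP9, a prolyl isomerase, fell in senescent cells and differed by -0.60 ± 0.28.

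Sensors of the unfolded protein response and genes of ER-associated degradation had a median of -0.19 (-0.13 without senescent control 1, -0.33 without senescent heat shock 1), with 18 of 27 members below 0. HERPUD1, a membrane protein of the degradation complex, had 253 and 112 CPM in senescent heat shock, 55.6 and 82.4 CPM in senescent control, 459 and 390 CPM in young heat shock, and 69.0 and 70.8 CPM in young control. Heat-shocked young libraries were the highest, and the HERPUD1 difference was -1.20 ± 0.50 in footprints and -1.93 ± 0.61 in transcripts. The footprint value was -1.93 without senescent heat shock 1 and -0.75 without senescent heat shock 2. EIF2AK3, which encodes the kinase PERK, differed by -1.22 ± 0.54. XBP1, the factor whose mRNA is spliced by IRE1, rose alike in both states (log2 2.16 in senescent and 2.30 in young cells) and differed by -0.14 ± 0.28, and the J-domain protein DNAJB9 differed by -0.96 ± 0.51.

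Genes of the integrated stress response did not share a direction. The list had a median of -0.13, which was 0.13 without senescent control 2 and -0.39 without senescent heat shock 2. Of its 32 members 20 were below 0, beside 50.3% of all genes. At an unadjusted p under 0.05, 2 members were lower, beside 3.06% of all genes. ATF4, the factor translated through its upstream reading frames when eIF2 is phosphorylated, had 265 and 417 CPM in senescent heat shock, 18.5 and 31.6 CPM in senescent control, 213 and 257 CPM in young heat shock, and 27.2 and 22.7 CPM in young control. ATF4 rose in both states and differed by 0.52 ± 0.43 in footprints, where its transcripts differed by -0.64 ± 0.28, and footprint minus transcript was 1.16 ± 0.54. PPP1R15A, the stress-induced subunit of the eIF2 phosphatase, had 429 and 712 CPM in senescent heat shock, 36.6 and 31.9 CPM in senescent control, 272 and 103 CPM in young heat shock, and 26.1 and 26.2 CPM in young control. Heat-shocked young libraries differed widely from each other, and the difference of 1.21 ± 0.58 was not past either threshold. DDIT3, a pro-death factor downstream of ATF4, rose in both states and differed by -0.36 ± 0.56. On the lower side were SESN2, a sestrin that restrains mTORC1 (-1.40 ± 0.44), and SLC7A11, the cystine transporter (-0.81 ± 0.36), both of which fell in senescent cells and were not called in young cells. HMOX1, heme oxygenase, differed by -0.05 ± 0.49.

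The ribosomal protein list had a median difference of -0.35 in footprints (-0.22 without senescent heat shock 2), with 66 of 78 members below 0, and a median of 0.00 in transcripts, with 39 of 79 below 0. In senescent cells 10 members fell and 0 rose, beside 5.24% and 3.12% of all genes, and in young cells 0 were called in either direction by edgeR. No member was called for the difference, and 2 of 78 were lower at an unadjusted p under 0.05, no larger a share than the 3.06% of all genes. RPL13A had 475 and 319 CPM in senescent heat shock, 1052 and 1015 CPM in senescent control, 734 and 634 CPM in young heat shock, and 1012 and 1080 CPM in young control. It lay lower under heat in both states, fell in senescent cells (log2 -1.38, adjusted p = 0.0112, edgeR) and differed by -0.77 ± 0.30. RPL37A had 556 and 389 CPM in senescent heat shock, 1350 and 813 CPM in senescent control, 1340 and 717 CPM in young heat shock, and 1066 and 1075 CPM in young control, where replicates of 3 groups were far apart, and differed by -1.14 ± 0.48 (-0.65 without young heat shock 1).

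The TOP tract that marks these mRNAs is shown as the first 20 bases from the annotated start of transcription (RefSeq, GRCh38.p14), with the run of pyrimidines in capitals, beside HSPA1A, which lacks one.
RPL13A, chr19:49487608-49487627, plus strand: CTTTTCCaagcggctgccga
RPL37A, chr2:216498844-216498863, plus strand: CTTTCTgggctcggacctag
EEF2, chr19:3985444-3985463, minus strand: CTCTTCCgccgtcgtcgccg
EEF1A1, chr6:73521013-73521032, minus strand: CTTTTTCgcaacgggtttgc
HSPA1A, chr6:31815543-31815562, plus strand: aacggctagcctgaggagct
A start with C followed by at least 4 further C or T bases, read on the sense strand only, was found at 1429 of 35116 annotated starts (4.07%). Of the 52 tested ribosomal protein genes with 1 annotated start, 40 had it. Among all tested genes with 1 annotated start, the 357 with such a start had a median footprint difference of -0.12 and the 5919 without it a median of 0.02, which is a description with no test, and 40 of the 357 are ribosomal protein genes.

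Other mRNAs of this class included the most heat-sensitive footprints of the set. PABPC1, the cytoplasmic poly(A)-binding protein, had 13.8 and 4.67 CPM in senescent heat shock, 394 and 288 CPM in senescent control, 23.3 and 18.7 CPM in young heat shock, and 359 and 340 CPM in young control. It fell in both states (log2 -5.16 ± 0.40 in senescent and -4.06 ± 0.38 in young cells), with both heat-shocked senescent libraries below both heat-shocked young ones. The difference of -1.10 ± 0.55 was -2.15 without senescent heat shock 1 and -0.59 without senescent heat shock 2. PABPC4, its paralogue, had 12.6 and 3.61 CPM in senescent heat shock, 124 and 81.8 CPM in senescent control, 20.0 and 18.7 CPM in young heat shock, and 88.4 and 79.9 CPM in young control, a difference of -1.49 ± 0.61 that was -2.72 without senescent heat shock 1 and -0.93 without senescent heat shock 2. The elongation factors EEF2 (-0.77 ± 0.40) and EEF1A1 (-0.65 ± 0.42) were called in neither state. Over the 25 other TOP mRNAs and elongation factors the median was -0.28, with 18 below 0, and it was 0.05 without young heat shock 1. Initiation factors had a median of 0.14 (0.01 without senescent heat shock 2) with 25 of 35 members above 0; EIF4G3 stood at -1.04 ± 0.36 and EIF4G2, which supports translation without the cap-binding protein, at 0.67 ± 0.29.

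**Figure D4:**
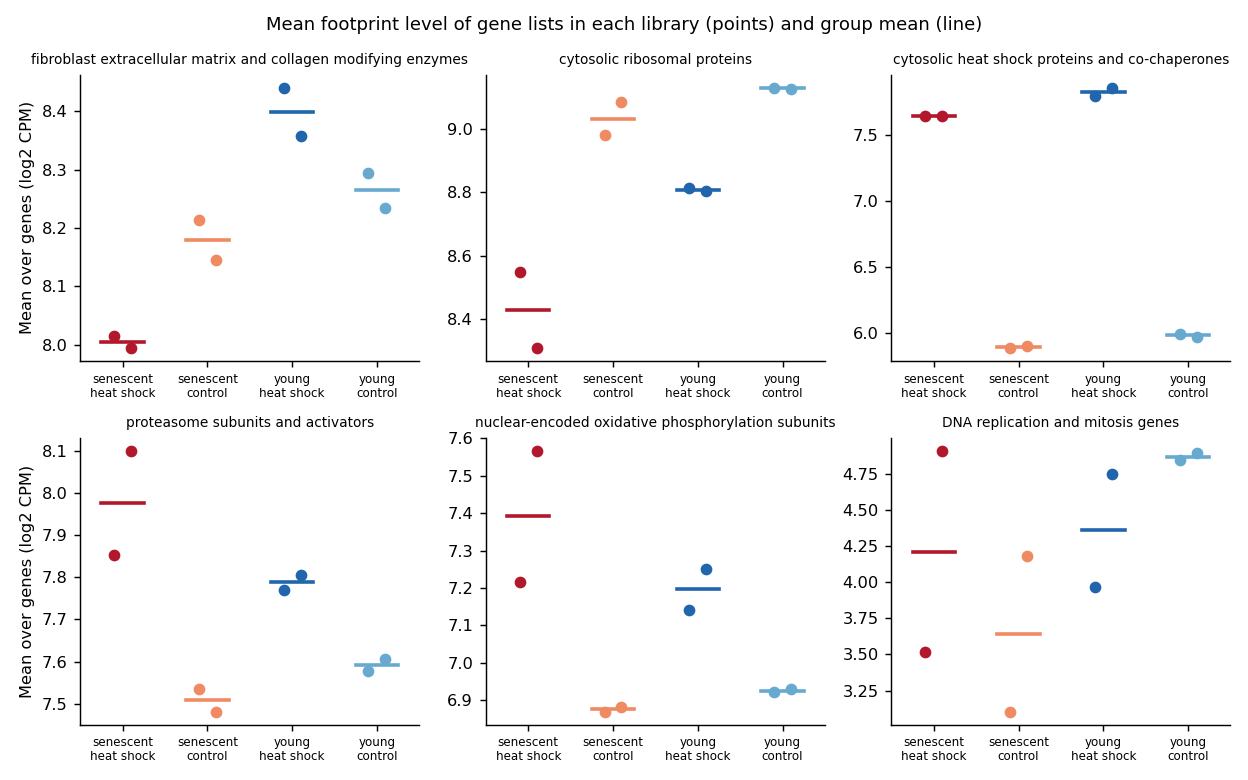
Mean footprint level over 6 gene lists (log2 CPM) in each library, with points for libraries and a line for the group mean. Extracellular matrix and ribosomal protein means are lowest in senescent heat shock, and the group means of proteasome and oxidative phosphorylation genes are highest there. For DNA replication and mitosis the libraries within every group but young control lie far apart.

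On the higher side, the genes of smallest p included giant proteins that link the cytoskeleton to membranes and junctions. Length was not particular to this side. At an unadjusted p under 0.05, median coding length was 1516 bases for higher genes and 2022 for lower ones, beside 1440 for all tested. AHNAK, a scaffold protein of the cell cortex, had 3328 and 3777 CPM in senescent heat shock, 793 and 901 CPM in senescent control, 2458 and 2285 CPM in young heat shock, and 1328 and 1319 CPM in young control. Senescent cells were below young cells in control and above them under heat. AHNAK rose in senescent cells (log2 2.07 ± 0.17, adjusted p = 0.000906, edgeR), was not called in young cells (log2 0.84 ± 0.17, adjusted p = 0.0583, edgeR) and differed by 1.23 ± 0.24 (95% interval 0.67 to 1.78). The cytolinker plectin, PLEC, had 481 and 573 CPM in senescent heat shock, 135 and 146 CPM in senescent control, 445 and 272 CPM in young heat shock, and 282 and 255 CPM in young control, a difference of 1.49 ± 0.34. IQGAP1, a scaffold of the actin cytoskeleton, had 459 and 566 CPM in senescent heat shock, 129 and 116 CPM in senescent control, 363 and 319 CPM in young heat shock, and 180 and 172 CPM in young control, a difference of 1.11 ± 0.26. AHNAK, PLEC and IQGAP1 share a pattern in which senescent cells are lower in control and higher under heat. Their transcript differences were 0.19 ± 0.26 for AHNAK, 0.29 ± 0.40 for PLEC and -0.13 ± 0.27 for IQGAP1. With the GC trend removed their footprint differences were 1.19 for AHNAK, 1.69 for PLEC and 1.10 for IQGAP1. The list of contractile and actin cytoskeleton genes as a whole had a median of 0.09 (0.00 without young heat shock 2), with 23 of 35 members above 0.

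PCNT, pericentrin of the centrosome, had 16.8 and 27.4 CPM in senescent heat shock, 5.83 and 8.61 CPM in senescent control, 9.37 and 9.63 CPM in young heat shock, and 12.9 and 12.4 CPM in young control, a difference of 2.01 ± 0.48. VPS33B, which acts in vesicle fusion, differed by 1.62 ± 0.41, and POLR2K, a subunit shared by the RNA polymerases, by 1.31 ± 0.33. ERCC5, an endonuclease of nucleotide excision repair, stood at 1.51 ± 0.35 but overlaps the readthrough gene BIVM-ERCC5, for which raw counts were 0 and 0 in senescent heat shock, 39 and 108 in senescent control, 0 and 7 in young heat shock, and 0 and 0 in young control. Counting could have split reads between them, so both are uncertain, and the same holds for TVP23C and TICAM2, which overlap readthrough genes too. TVP23C had 106 and 72 counts in senescent heat shock, 0 and 2 in senescent control, 35 and 87 in young heat shock, and 62 and 80 in young control. TICAM2 had 166 and 43 counts in senescent heat shock, 0 and 0 in senescent control, 187 and 201 in young heat shock, and 81 and 120 in young control, and no fold is given against a group at 0.

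Proteasome subunits had a median difference of 0.37 (0.15 without senescent heat shock 2), with 33 of 38 members above 0, against 49.7% of all genes tested; in transcripts the median was -0.17. No proteasome gene was called, none was past an unadjusted p of 0.05, and the smallest p belonged to the ATPase subunit PSMC2 (0.51 ± 0.26). Nuclear-encoded subunits of oxidative phosphorylation had a median of 0.23, which was 0.02 without senescent heat shock 2, with 59 of 71 above 0, and a transcript median of -0.10. Among these, NDUFB3 of complex I (0.75 ± 0.31) and SDHB of complex II (0.67 ± 0.28) were higher at an unadjusted p under 0.05. They were 2 of 71 members, beside 1.85% of all genes. SR proteins and their kinases had a median of 0.20 and the chaperonin and prefoldin list one of 0.20 (0.01 without young heat shock 2), with transcript medians of -0.18 and -0.34. SRSF7, a splicing factor of the SR family, rose in senescent cells, was not called in young cells and differed by 0.70 ± 0.26.

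**Figure D5:**
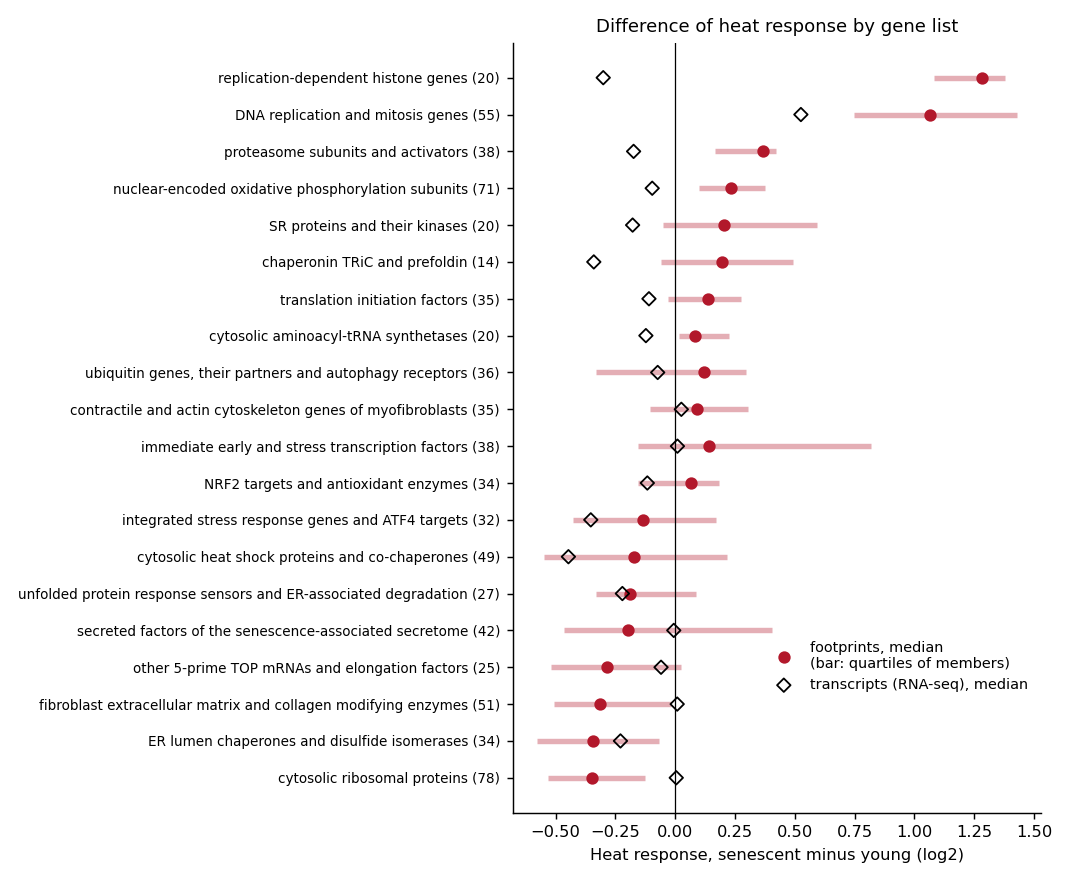
Median difference of the heat response, senescent minus young (log2), of 20 gene lists in footprints (filled circles, bars for the quartiles of members) and in transcripts (open diamonds), with the number of members tested in footprints in brackets. Ribosomal proteins and extracellular matrix lie left of 0 in footprints and at 0 in transcripts, proteasome and oxidative phosphorylation lie right of 0 in footprints only.

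For DNA replication and mitosis genes the median was 1.06 and 52 of 55 lay above 0. At an unadjusted p under 0.05, 5 were higher and 0 lower, beside 1.85% and 3.06% of all genes. Their transcript median was 0.53, with 3 of 56 below 0. Replication-dependent histone genes stood at 1.28 and all 20 above 0, with a transcript median of -0.30 and 10 of 11 below 0. For both lists, footprint libraries within each senescent group differed by at least as much as these footprint medians, and only the young control libraries lay close together. Mean footprint levels of the replication and mitosis list were 3.52 and 4.91 log2 CPM in senescent heat shock, 3.11 and 4.18 in senescent control, 3.97 and 4.74 in young heat shock, and 4.84 and 4.89 in young control. Replicate 2 was the higher one in the first 3 groups, and without senescent heat shock 2 the median difference was 0.08 for this list and -0.27 for the histones. Among single genes, the CDK inhibitor CDKN2C rose in both states (log2 5.00 in senescent and 3.27 in young cells) and differed by 1.74 ± 0.60, with 21.5 ± 0.763 CPM in senescent heat shock, 0.65 ± 0.0361 CPM in senescent control, 16.4 ± 2.93 CPM in young heat shock, and 1.71 ± 0.489 CPM in young control (SD, n = 2 each). The CDKN2C control levels rest on few counts, above all in senescent cells, so its rises and its difference are uncertain. CDKN1A, which encodes the inhibitor p21, differed by 0.52 ± 0.41.

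Further genes at an unadjusted p under 0.05 in their lists were CIRBP, a cold-inducible RNA-binding protein, with a difference of 0.86 ± 0.26, and LARP1, which binds TOP mRNAs, with -0.88 ± 0.38. EGR1, an immediate early factor, had 41.2 and 95.1 CPM in senescent heat shock, 50.8 and 43.7 CPM in senescent control, 32.3 and 41.3 CPM in young heat shock, and 61.3 and 62.9 CPM in young control. Its footprint difference was 1.28 ± 0.50, and its transcripts differed by 1.89 ± 0.61. The EGR1 footprint difference was 0.53 without senescent heat shock 2 and 1.74 without senescent heat shock 1. Of the secreted factors tied to senescence, 42 of 53 were tested, with a median of -0.20 that was 0.22 without senescent control 2. CXCL12, a chemokine, stood at 1.98 ± 0.70, which was 1.10 without senescent heat shock 2 and 2.66 without young heat shock 2. Outside that list the metallothionein MT1X stood at 1.88 ± 0.65.

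In the test of footprint against transcript differences, 1 of 11166 genes (0.00896%) was called by edgeR: BOLA2B, at an adjusted p of 0.0287 and chosen after its values were seen. BOLA2B has a near-identical copy, and its transcripts were 3.94 and 6.15 CPM in senescent heat shock, 2.37 and 1.48 CPM in senescent control, 3.19 and 3.47 CPM in young heat shock, and 0 in both young control libraries. The call held without Ribo-seq senescent control 2, Ribo-seq young heat shock 2, RNA-seq senescent heat shock 2 or RNA-seq senescent control 2, and was lost without any other single library. Its footprint difference was 0.21 ± 0.33. No gene was called for the transcript difference (0 of 13177, 0%, by edgeR). At an unadjusted p under 0.05, 33 genes (0.25%) were higher and 86 (0.653%) lower, 119 in all, where a uniform spread of p gives 5%. With the replicate number as a block, 683 genes were under it. For footprint against transcript differences, 250 genes were under it without the block and 450 with it. Few calls in transcripts therefore do not show that transcript responses were alike, and the reason was not tested. DESeq2 called 3 genes for the transcript difference, the copied genes SULT1A4 and BOLA2B and FKBP4, all lower.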

How the data were processed

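Human WI-38 libraries for ribosome profiling and RNA-seq were compared, 2 per group. The authors deposited expected counts and TPM values per gene. STAR, RSEM, Bowtie2 and the build hg19 are listed in the submitters' processing notes, without versions. Expected counts were rounded to whole numbers and tested in edgeR 4.0.16 under R 4.3.3, after filterByExpr and with TMM factors (quasi-likelihood F test, 4 group means, Benjamini-Hochberg adjustment over all genes, threshold 0.05). Footprint totals were 4581141 to 9104077 per library and RNA-seq totals 26434514 to 37126871. A fit of all 16 libraries tested footprint against transcript differences. TPM as deposited by the authors served limma 3.58.1 on log2(TPM + 1), and DESeq2 1.42.0 was a further alternative. The code was tested on simulated data. Named genes were the 10 of smallest p in each direction with at least 10 CPM in a group, up to 4 of smallest p in each list described, and a panel of 22 stress genes; others are said to be chosen after their values were seen. Some genes and sequences that these rules would name are not reported here. Members and lists were chosen with earlier results of these data known. Of the 34 gene lists, 20 are plotted, and the rest are given in the closing section as a count.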

Additional observations from a re-analysis of the deposited data

How the results depend on the processing

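For the difference of footprint responses edgeR called 0 genes under every alternative of scaling, stricter filter and left-out library, with the young control libraries as 1 sample, and with the GC trend removed, an alternative chosen after seeing the data. The exceptions were 5 genes without a filter on low counts, 10 with DESeq2 and 1 with limma on log2(TPM + 1) without a filter. Calls for heat in senescent cells numbered 1528 without a filter, 1493 with DESeq2, 539 with limma without a filter and 247 with the young control libraries as 1 sample, and ranged from 237 to 1934 over left-out libraries. Calls for heat in young cells numbered 237 by library size only, 422 without a filter, 451 with DESeq2, 80 with limma on log2(TPM + 1), 54 on log2(TPM + 0.1), 52 with limma without a filter and 27 with the young control libraries as 1 sample, and ranged from 27 to 275 over left-out libraries. Between the states under heat, where ELN was called, there were 0 with DESeq2's size factors in edgeR, with each of the 3 limma settings and with the young control libraries as 1 sample, 112 without a filter and 128 with DESeq2, and 0 to 494 over left-out libraries. Between the states in control, where 0 were called, there were 118 without a filter, 111 with DESeq2, 1 on log2(TPM + 0.1) and 1 with limma without a filter, and 0 to 6 over left-out libraries. For the transcript difference there were 2 without a filter, 3 with DESeq2, 2 on log2(TPM + 1), 4 on log2(TPM + 0.1) and 22 with limma without a filter. Footprint against transcript differences gave 4 with DESeq2 and 0 to 2 over left-out libraries. The causes were not tested.

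Same-numbered Ribo-seq libraries correlated in their replicate deviations by -0.038 to 0.329 and RNA-seq libraries by 0.481 to 0.658, and with 2 libraries a group the numbers are not known to pair the samples. With the replicate number as a block, calls were 0 for the footprint difference, 1667 for heat in senescent cells, 330 for heat in young cells, 18 between the states under heat, 27 between them in control and 1 for the transcript difference.

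Of 3253 alternative values of 163 named genes, 3217 kept the sign of the difference, 36 did not, and 15 were past the threshold. Of 34 lists, 13 kept the sign of their median in every alternative run. With 2 libraries a group, the median 95% half-width of 0.899 log2 sets the precision of a single gene.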
